A study of Mus musculus with 31 samples.

Results

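Alternative exon use of cell adhesion, guidance and surface receptor genes was measured in cortex from mouse models of Huntington's disease (HD). The members were the splicing events whose gene symbol begins with one of a fixed set of letters that stand for these gene families (Ncam, Nrcam, Nfasc, L1cam, Chl1, Cadm, Cntn, Cdh, Pcdh, Ctnn, Itg, Lrp, Robo, Slit, Sema, Plxn, Eph, Efn, App alone, Aplp, Ptpr, Cd followed by a digit, Col followed by a digit, Fn1, Lama, Lamb, Lamc, Nlgn, Lphn, Fgfr, Erbb, Nrg, Ntrk, Ncan, Bcan, Vcan, Agrn, Gpr, Adam, Tenm, Odz, Insr, Igf1r, Dlg, Magi and Lrrf). The rule used names alone and no measured value. It found 102 events in 73 genes, of 1922 events in 1559 genes. Names do not always follow function: 8 of the events, in 6 genes, share only the letters with these families (among them Lrrfip2, Fgfr1op, Col4a3bp and Gprasp1), and they are described last. They are counted with the members throughout, and gave 2 of the 18 calls in R6/2, 2 of the 22 in Q150 HOMO and 1 of the 3 in Q175 HOMO mice.

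Exon use was read by RASL-seq, in which pairs of probes that anneal side by side across a known splice junction are ligated and counted. For a cassette event the short count reads the junction made when the alternative exon is skipped. The long count reads a junction of the retained exon, and exclusion is the short count as a percent of both. Exclusion is thus a share of counts from different probe pairs and not of transcripts. Cassette events were 99 of the 102 members and 1853 of all 1922 events. For the others, an event each of Dlg3, Fgfr3 and Fn1 among the members, skipping and exclusion stand for the share of the short junction. All 31 mice were untreated, and RNA came from 1 hemisphere. The R6/2 mice (B6CBA-Tg(HDexon1)62Gpb/3J, a transgene of exon 1 of human HTT) were 3 months old in the study's methods and comprised 3 HD and 3 WT animals. Q150 mice (B6.129P2-Htttm2Detl/150J, 7 months) carried 150 glutamines in their own huntingtin on 1 allele (HET, 4 mice) or both (HOMO, 4 mice). Q175 mice (B6J.129S1-Htttm1Mfc/190ChdiJ, 18 months) carried 175 on 1 allele (HET, 4 mice) or both (HOMO, 3 mice). The 10 knock-in WT mice had 7 glutamines on both alleles. Of these, 5 share the event list of the Q150 mice and 5 that of the Q175 mice. Age, strain and length of the glutamine tract differ together between the models, so they cannot be told apart.

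The genes of this group sit at the surface of neurons and glia and set which cells touch, where axons grow and how synapses are held. Ncam1, Chl1 and Nrcam are immunoglobulin-domain adhesion molecules, and ephrins and their Eph receptors signal between touching cells. Receptor tyrosine phosphatases and Fgf receptors turn contact or growth factors into phosphorylation signals. App and its relative Aplp2 are single-pass proteins that are cut at the membrane. Many of these genes hold short alternative exons that add or remove a few residues in an extracellular loop, a linker or the cytoplasmic tail, and neurons and other cells often use them differently.

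The alternative exons that carry the results are printed first, so that their size and sequence can be set beside the values. Most positions in the files lie outside their gene in the reference genome. An exon was therefore found by its gene and by the length of intron that its skipping joins in the GENCODE M21 annotation of GRCm38. Positions and letters are those of GRCm38. Lower case letters are 20 intronic bases before and 12 after the exon, and capitals mark the exon itself, read 5′ to 3′ on the strand of the gene. Of 99 cassette events 95 had a match and 83 had exactly 1, while both events of Odz3 were not searched for. In all 83 the intron ended in AG before the exon and began with GT after it. The first set is the 3 exons of 30 bases whose skipping rose in R6/2 mice, in Ncam1 (chr9:49550540-49550569, minus strand), Dlgap1 (chr17:70718196-70718225, plus strand) and Ptprt (chr2:161687069-161687098, minus strand), which keep the reading frame.
Ncam1 30-base exon: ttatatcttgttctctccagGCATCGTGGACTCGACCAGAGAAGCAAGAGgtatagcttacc
Dlgap1 30-base exon: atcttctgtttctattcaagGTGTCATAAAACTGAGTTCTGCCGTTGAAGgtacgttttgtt
Ptprt 30-base exon: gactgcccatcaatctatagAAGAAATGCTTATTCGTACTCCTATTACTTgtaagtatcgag

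The second set is the pair of 168-base exons of App (chr16:85043576-85043743, minus strand) and Aplp2 (chr9:31167561-31167728, minus strand), which encode the Kunitz protease inhibitor domain of either protein. They had the same letter at 114 of 168 positions (67.9%), and each fell in exclusion in a different model.
App 168-base exon: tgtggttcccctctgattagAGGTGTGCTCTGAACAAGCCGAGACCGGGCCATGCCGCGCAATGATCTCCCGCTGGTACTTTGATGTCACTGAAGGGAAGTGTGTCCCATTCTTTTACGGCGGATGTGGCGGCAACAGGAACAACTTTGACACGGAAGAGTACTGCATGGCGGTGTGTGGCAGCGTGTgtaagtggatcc
Aplp2 168-base exon: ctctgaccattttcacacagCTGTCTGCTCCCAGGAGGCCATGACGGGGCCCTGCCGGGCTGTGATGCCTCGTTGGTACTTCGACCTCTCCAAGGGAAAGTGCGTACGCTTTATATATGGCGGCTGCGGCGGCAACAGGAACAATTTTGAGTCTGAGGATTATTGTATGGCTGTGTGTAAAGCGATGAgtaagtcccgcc

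The third set holds the exons with the widest or largest changes: the Erbin exon, listed under its older symbol Erbb2ip (chr13:103830188-103830331, minus strand), the Efnb2 exon (chr8:8623148-8623240, minus strand), and the exons of Adamts10 (chr17:33543636-33543781, plus strand) and Magi1 (chr6:93680789-93680877, minus strand), whose lengths are no multiple of 3.
Erbb2ip 144-base exon: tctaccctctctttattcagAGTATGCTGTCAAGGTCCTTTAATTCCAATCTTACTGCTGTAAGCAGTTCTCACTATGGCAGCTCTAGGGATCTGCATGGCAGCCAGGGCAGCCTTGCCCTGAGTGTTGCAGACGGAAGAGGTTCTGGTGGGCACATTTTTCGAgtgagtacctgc
Efnb2 93-base exon: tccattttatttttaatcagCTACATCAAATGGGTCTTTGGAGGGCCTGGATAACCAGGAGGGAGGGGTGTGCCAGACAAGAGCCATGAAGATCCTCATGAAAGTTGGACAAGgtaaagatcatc
Adamts10 146-base exon: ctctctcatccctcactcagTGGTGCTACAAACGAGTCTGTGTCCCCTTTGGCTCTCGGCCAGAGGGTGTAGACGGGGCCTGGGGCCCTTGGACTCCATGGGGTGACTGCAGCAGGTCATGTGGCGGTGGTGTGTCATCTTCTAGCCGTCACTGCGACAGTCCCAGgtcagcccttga
Magi1 89-base exon: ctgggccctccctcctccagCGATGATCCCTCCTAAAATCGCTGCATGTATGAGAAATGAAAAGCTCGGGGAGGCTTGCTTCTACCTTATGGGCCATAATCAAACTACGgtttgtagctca

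Each R6/2 mouse was measured on 92 member events, each Q150-set mouse on 92 and each Q175-set mouse on 94, and 83 events in 64 genes were on all 3 lists. Totals of short and long counts over all events ran from 2171709 to 5256516 per mouse. A member event had a median of 606 counts per mouse, from 8 to 105877. The 95% Wilson interval of exclusion reached a median of 3.02 percentage points to either side at the shallowest mouse of a group, and 28.5 at most. These intervals cover counting error only, since no molecular identifiers are stated. None of 47 pairs of mice of 1 group was alike within counting noise (lowest chi-square per degree of freedom 4.26). Of neuron markers on the probe lists, 5 of 8 genes, the summed CPM (counts scaled to equal library totals) were 36923 to 40820 in R6/2 WT and 29812 to 34369 in R6/2 HD mice, and 38018 to 45540 in Q150-set WT and 33265 to 38082 in Q150 HOMO mice, which overlapped. The marker events did not move alike: in R6/2 mice 3 of 8 had lower totals, 1 had a higher total (Gria2, 0.25 on the log2 scale, adjusted p = 0.0171) and 4 did not pass. In Q150 HOMO mice 1 of 9 passed, a lower total of Grin1 (-0.42, adjusted p = 0.0287). Oligodendrocyte markers (2 of 7 genes in the R6/2 set and 3 of 7 in the other sets) overlapped between R6/2 WT (10879 to 13272) and HD mice (9001 to 13066). Their part in the results below was not tested, and in bulk cortex fewer cells of a type and less RNA per cell cannot be told apart. Endothelium had 1 of 5 markers, at 46 to 81 CPM in R6/2 WT and 33 to 58 in HD mice, and no marker of astrocytes or immune cells was on the lists.

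In R6/2 cortex exon use changed in 18 of 92 member events (19.6%), among them Adamts10, Efnb2, Magi1 and Ncam1, at a Benjamini-Hochberg adjusted p under 0.05 in limma over all 1743 events, of which 28.6% passed. Skipping rose in 13 member events, where 21.1% of all events rose, and fell in 5, where 7.46% of all fell. Q150 HOMO mice gave 22 of 92 (19 rose and 3 fell), where 23.9% of all events passed, 19.8% upwards and 4.09% downwards. With the series of mouse numbers as a term they gave 29 of 92 (23 rose and 6 fell), where 30.2% of all events passed. In Q150 HET mice Adamts10 and Erbb2ip passed, 2 of 92 events, against 3.47% of all events. That count was 7 with the series of mouse numbers as a term, where 7.675% of all events passed. It was 8 against all 10 knock-in WT mice, for which the share of all events is not given here. In Q175 HET mice 2 of 94 passed (Erbb2ip rose and Fn1 fell), against 0.598% of all, and in Q175 HOMO mice 3 of 94 (Erbb2ip and Fgfr1op rose and Odz3 fell), against 7.07% of all. In every model the share of member events that passed was thus near or below that of all events except in Q175 HET mice, where it rests on 2 events. In all, 32 of the 102 member events passed in at least 1 comparison with WT. That count was not taken over all events, so it cannot be set against them. HET and HOMO mice of a line were compared with the same 5 WT mice. Single mice bore on these counts: Q150 HOMO calls fell to 14 without knock-in WT replicate 3, Q150 HET calls to 0 without Q150 HET replicate 1 and to 1 without Q150 HET replicate 2 or knock-in WT replicate 1 or 4. Q175 HET calls fell to 0 without Q175 HET replicate 4, and Q175 HOMO calls to 1 without knock-in WT replicate 9 or Q175 HOMO replicate 2.

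The median event of the assay moved towards skipping in every mutant group, and so did the median member. The median log2 change in R6/2 mice was 0.07 over the members and 0.18 over all events, in Q150 HET mice 0.09 and 0.10, in Q150 HOMO mice 0.14 and 0.19, in Q175 HET mice 0.02 and 0.04, and in Q175 HOMO mice 0.08 and 0.07. Mean exclusion over members was 44.5% ± 0.210 (SD, n = 3) in R6/2 WT and 45.6% ± 0.465 (n = 3) in R6/2 HD mice, with 42.6% ± 0.624 (n = 5) in Q150-set WT, 43.0% ± 0.555 (n = 4) in Q150 HET and 43.8% ± 0.415 (n = 4) in Q150 HOMO mice. The 3 R6/2 HD mice lay above all 3 of their WT mice, while the groups of the Q150 set overlapped. Over all events the mean was 45.5% in R6/2 WT and 47.2% in R6/2 HD mice, and the Q150 groups did not overlap, at 44.5% to 44.9% in WT, 45.4% to 45.7% in HET and 45.97% to 46.9% in HOMO mice. Over the members, the Q175 set had 44.4% ± 0.669 (n = 5) in WT, 44.0% ± 0.257 (n = 4) in HET and 44.9% ± 0.438 (n = 3) in HOMO mice, which overlapped. When each mouse was centred on its median event, which removes the shift shared by all events, the R6/2 members split into 9 rises and 9 falls (16.4% and 11.2% of all events) and the Q150 HOMO members into 7 and 8 (9.52% and 8.80%). Calls against WT mice that were lost under this centring are named below.

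**Figure D1:**
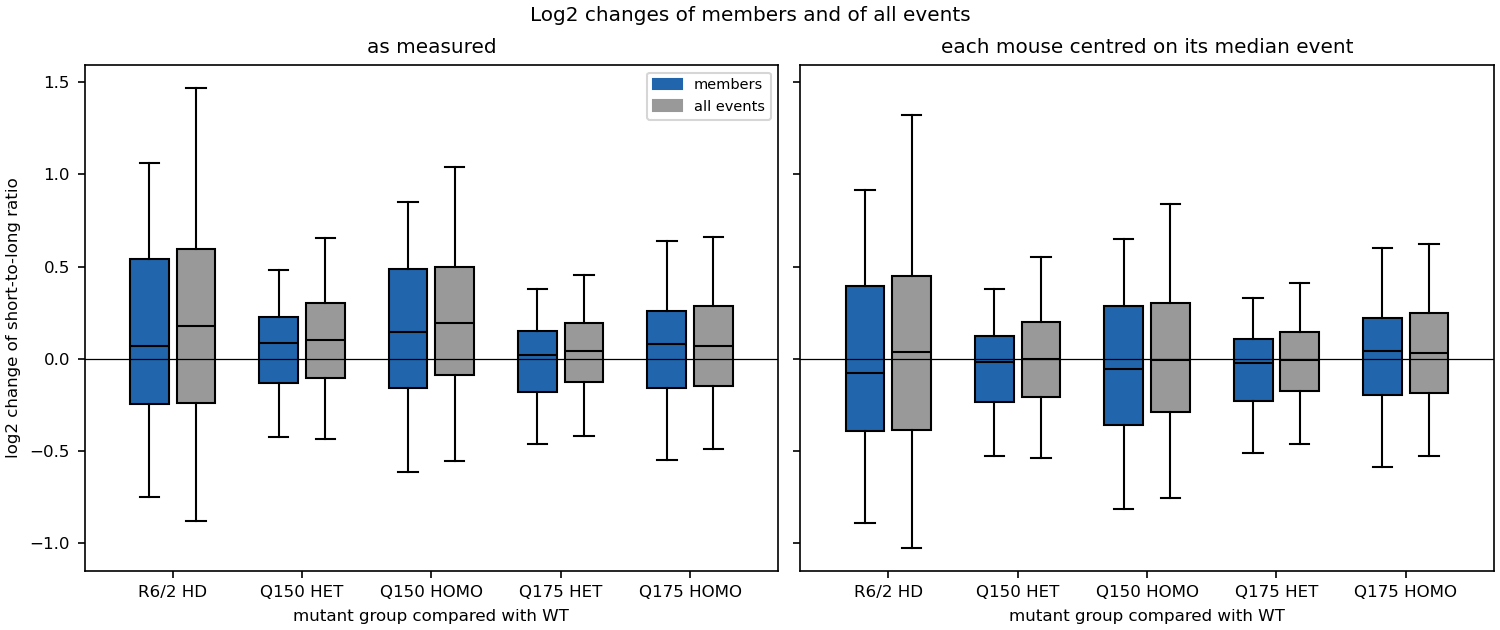
Boxes give the median and quartiles, and whiskers the 5th and 95th percentiles, of the log2 change of short over long count for member events (blue) and all events (grey) in each comparison of a mutant group with its WT mice, as measured (left) and with each mouse centred on its median event (right). As measured, the member median in R6/2 HD mice (0.07) lies below that of all events (0.18), and after centring they are -0.08 and 0.04.

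Among the immunoglobulin-domain adhesion molecules the change with the smallest p was that of Ncam1, the neural cell adhesion molecule. Its 30-base exon, known as VASE, adds residues to an immunoglobulin domain. Exclusion of this exon was 9.503%, 10.6% and 10.3% in the R6/2 WT mice and 15.7%, 16.4% and 16.5% in the R6/2 HD mice. The groups did not overlap (log2 change 0.78 ± 0.10, adjusted p = 8.8e-05; errors of log2 changes are SE), and the call held under all alternatives. Exclusion in the Q150 set was 10.9%, 11.7%, 10.1%, 10.1% and 10.04% in WT, 12.6%, 14.02%, 14.1% and 12.6% in HET and 13.1%, 15.4%, 10.9% and 11.8% in HOMO mice. All HET mice lay above all WT mice, but neither HET (0.38, adjusted p = 0.0562) nor HOMO mice (0.30, adjusted p = 0.0524) passed. Q175 mice spanned 8.82% to 10.6% (HET) and 8.75% to 10.8% (HOMO) beside 8.63% to 10.6% in WT.

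A second Ncam1 exon, of 801 bases, went the other way in R6/2 mice. It was excluded in 80.00%, 77.4% and 73.1% in WT and in 51.1%, 47.9% and 68.9% in HD mice, so that skipping fell (log2 change -1.34 ± 0.38, adjusted p = 0.0182). This event had only 45 to 164 counts per mouse, and the call was lost without R6/2 HD replicates 860 or 868 or R6/2 WT replicate 3 (adjusted p from 0.0532 to 0.0828). Chl1, the close homolog of L1, had a 162-base exon excluded in 4.85%, 6.44%, 3.55%, 2.65% and 5.03% in Q150-set WT mice and in 7.99%, 7.72%, 7.92% and 10.1% in Q150 HOMO mice, with all HOMO mice above all WT mice (log2 change 1.02 ± 0.21, adjusted p = 0.00142). In R6/2 mice the same exon was excluded in 5.25%, 7.703% and 5.43% in WT and 9.32%, 11.2% and 7.45% in HD mice, which overlapped (log2 change 0.65 ± 0.22, adjusted p = 0.0434). That rise was lost after centring (0.51, adjusted p = 0.0971) and without R6/2 HD replicates 860 or 868 or R6/2 WT replicates 3 or 6 (adjusted p from 0.0857 to 0.17). It was also lost without the variance trend (adjusted p = 0.102), with a pseudocount of 5 (0.0582) and in the quasi-binomial model (0.053). Cadm1, a synaptic cell adhesion molecule chosen here after its values were seen, had an event excluded in 62.6%, 62.1% and 53.2% in R6/2 WT and 70.6%, 70.8% and 68.4% in HD mice (log2 change 0.67 ± 0.16, adjusted p = 0.00897), a rise lost without the variance trend (adjusted p = 0.0529).

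Exons of Nrcam, another L1-family molecule, and the 48-base exon of Chl1 did not pass in any comparison. The 30-base Nrcam exon was skipped in 71.4%, 67.3% and 64.5% in R6/2 WT and 56.9%, 62.6% and 59.2% in HD mice (log2 change -0.51 ± 0.22, adjusted p = 0.112). The HD mice lay below all WT mice for it, yet it missed the threshold. Exclusion of the 36-base Nrcam exon was 65.9% to 69.9% in R6/2 WT and 66.9% to 68.1% in HD mice (log2 change -0.05 ± 0.12, adjusted p = 0.781). That of the Chl1 exon was 85.3% to 91.5% and 85.00% to 90.3% (log2 change -0.07 ± 0.42, adjusted p = 0.927). Of the 11 events in this role 4 passed in R6/2 mice, beside 28.6% of all events, and 1 of 9 in Q150 HOMO mice, beside 23.9%.

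**Figure D2:**
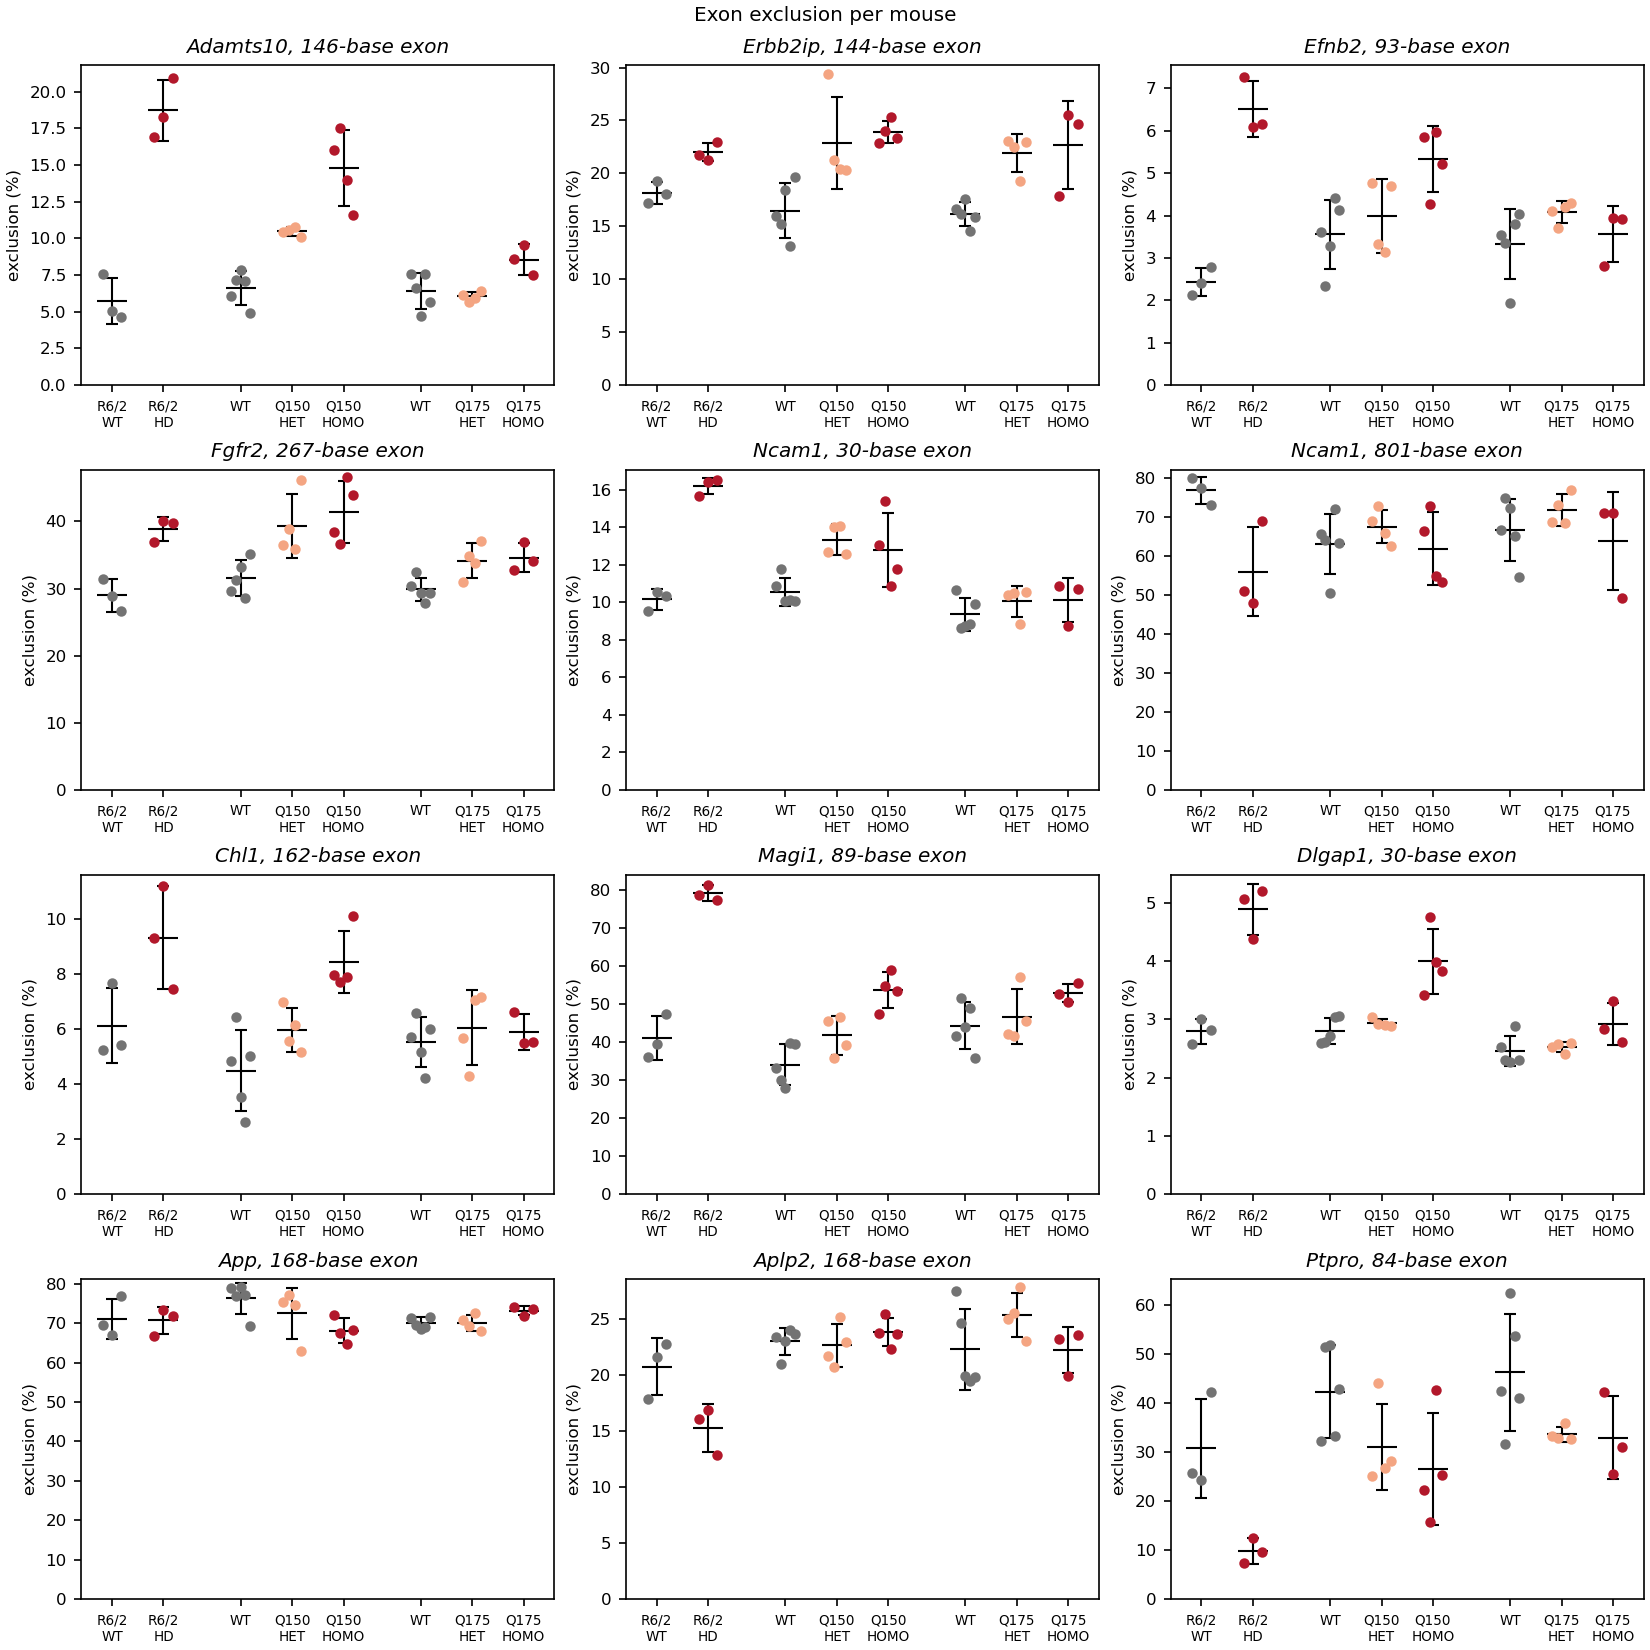
Exclusion in percent (short count over short plus long) of 12 member exons, each point 1 mouse, for R6/2 WT and HD, then the Q150 set (WT, HET, HOMO), then the Q175 set (WT, HET, HOMO), with bars at the group mean and SD. Adamts10, Efnb2, Magi1 and the 30-base Ncam1 exon separate R6/2 HD from R6/2 WT mice, and Erbb2ip separates every mutant group from its WT mice.

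The role of guidance cues held 12 events, and Efnb2, the transmembrane ligand ephrin-B2, was the strongest of them. Its 93-base exon was excluded in 2.12%, 2.398% and 2.79% in R6/2 WT and 7.28%, 6.102% and 6.17% in R6/2 HD mice. Every HD mouse lay above every WT mouse, and the rise (log2 change 1.47 ± 0.19, adjusted p = 0.000128) held under all alternatives. Values in the Q150 set were 3.61%, 2.33%, 3.29%, 4.41% and 4.14% in WT and 5.87%, 4.27%, 5.96% and 5.21% in HOMO mice, which overlapped (log2 change 0.63 ± 0.20, adjusted p = 0.0255). That smaller rise was lost after centring (0.43, adjusted p = 0.138), without Q150 HOMO replicates 1 or 3 or knock-in WT replicates 2 or 3 (adjusted p from 0.0521 to 0.0762) and without the variance trend (adjusted p = 0.0514). Q175 HET (3.71% to 4.299%) and HOMO mice (2.81% to 3.95%) overlapped their WT mice (1.93% to 4.04%).

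Efna5, a membrane-anchored ephrin of the A class, had an 81-base exon excluded in 15.5%, 12.8% and 10.9% in R6/2 WT and 17.4%, 18.7% and 17.7% in HD mice (log2 change 0.55 ± 0.18, adjusted p = 0.0347). Q150 HOMO mice rose by 0.45 (adjusted p = 0.035). Both rises were lost after centring (adjusted p = 0.123 and 0.26). The first was also lost without R6/2 HD replicates 860, 868 or 869 or R6/2 WT replicates 4 or 6 (adjusted p from 0.0545 to 0.136), and the second without Q150 HOMO replicates 2, 3 or 4 or knock-in WT replicates 1, 2 or 3 (adjusted p from 0.0708 to 0.0982). The first was lost without the variance trend (adjusted p = 0.0812), and the second without the variance trend (adjusted p = 0.0576) and with only the 2 groups compared (0.0513). Odz3, a teneurin, moved towards inclusion. This older symbol stands for both Tenm2 and Tenm3 in the reference, so its exon was not searched for. The event was excluded in 22.9%, 15.5% and 19.01% in R6/2 WT and 13.7%, 11.3% and 10.3% in HD mice, without overlap (log2 change -0.82 ± 0.18, adjusted p = 0.00495). In the Q175 set it was 18.99%, 14.8%, 19.4%, 21.3% and 17.97% in WT and 10.3%, 14.2% and 18.3% in HOMO mice, which overlapped (log2 change -0.48 ± 0.15, adjusted p = 0.0383). This second fall was lost without Q175 HOMO replicates 1 or 2 or knock-in WT replicates 6, 8 or 9 (adjusted p from 0.07 to 0.471). It was also lost without the variance trend (adjusted p = 0.235), with the series of mouse numbers as a term (0.0518) and against all 10 knock-in WT mice (0.286). The events of Efna1, Epha5, Odz4, Sema4c, Sema4d, Sema6d and Slit2 passed in no comparison with WT.

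Of integrin, matrix and matrix protease genes, Adamts10, a secreted metalloprotease that binds microfibrils of the matrix, was the member with the strongest test in R6/2 mice. Its 146-base exon, whose skipping shifts the reading frame, was excluded in 7.55%, 5.07% and 4.61% in R6/2 WT and 16.9%, 18.3% and 20.96% in R6/2 HD mice (log2 change 1.94 ± 0.21, adjusted p = 3.32e-05). In the Q150 set exclusion was 6.07%, 7.13%, 7.85%, 7.13% and 4.93% in WT, 10.4%, 10.6%, 10.8% and 10.1% in HET and 16.1%, 17.5%, 13.96% and 11.6% in HOMO mice. The 3 groups did not overlap and stood in the order WT, HET, HOMO, with both HET (log2 change 0.74 ± 0.16, adjusted p = 0.0151) and HOMO mice (log2 change 1.29 ± 0.16, adjusted p = 6.48e-06) above WT. The HET call was lost without Q150 HET replicate 1 (adjusted p = 0.0561), and the other calls held under all alternatives. In the Q175 set WT mice had 7.57%, 6.62%, 4.68%, 7.58% and 5.65%, HET mice 6.13%, 5.66%, 5.97% and 6.41% and HOMO mice 8.59%, 9.57% and 7.503%, and neither HET (-0.07, adjusted p = 0.888) nor HOMO mice (0.46, adjusted p = 0.0793) passed. Fn1, the matrix protein fibronectin, had a 273-base exon that was excluded in 49.5%, 35.2%, 41.3%, 30.7% and 18.99% in Q175-set WT mice and in 12.3%, 20.4%, 17.4% and 8.33% in Q175 HET mice (log2 change -1.66 ± 0.31, adjusted p = 0.00316). It is named after its values were seen, the groups overlapped, and WT mice of the Q150 set were at 4.25% to 26.96%. The fall was lost without Q175 HET replicate 4 (adjusted p = 0.0582), and also without the variance trend and against all 10 knock-in WT mice (adjusted p up to 0.722).

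Growth factor receptors and their partners gave the call shared by every mutant group. Erbb2ip encodes Erbin, a scaffold that binds the receptor ErbB2 and is itself no receptor. Its 144-base exon was excluded in 17.2%, 19.3% and 18.02% in R6/2 WT and 21.8%, 21.3% and 22.9% in HD mice (log2 change 0.34 ± 0.11, adjusted p = 0.0272). In the Q150 set it was 15.99%, 15.2%, 18.4%, 13.1% and 19.7% in WT, 29.4%, 21.3%, 20.5% and 20.3% in HET and 22.9%, 24.00%, 25.3% and 23.4% in HOMO mice. Both HET (log2 change 0.58 ± 0.15, adjusted p = 0.0271) and HOMO mice (log2 change 0.68 ± 0.15, adjusted p = 0.00167) lay above all WT mice, the 4 HOMO mice within the range of the HET mice. In the Q175 set it was 16.6%, 16.2%, 17.6%, 14.5% and 15.8% in WT, 23.1%, 22.5%, 19.3% and 23.00% in HET and 17.9%, 25.5% and 24.7% in HOMO mice. Again HET (log2 change 0.54 ± 0.11, adjusted p = 0.00428) and HOMO mice (log2 change 0.59 ± 0.12, adjusted p = 0.000826) rose without overlap with WT. The R6/2 call was lost after centring (0.20, adjusted p = 0.273), as was that of Q150 HET mice (0.48, adjusted p = 0.0874). Without the variance trend the calls were lost in R6/2 (adjusted p = 0.142), Q150 HET (0.124), Q175 HET (0.351) and Q175 HOMO mice (0.0692), and the Q150 HOMO call held.

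Single mice bore on 3 of these Erbb2ip calls. The R6/2 call was lost without R6/2 HD replicate 869 or R6/2 WT replicates 3 or 6 (adjusted p from 0.0769 to 0.0936). The Q150 HET call was lost without Q150 HET replicates 1 or 2 or knock-in WT replicates 1, 2 or 4 (adjusted p from 0.0519 to 0.125) and the Q175 HET call without Q175 HET replicate 4 (adjusted p = 0.0582). In Q175 mice the numbers in the titles fall into a low and a high series, HET mice all in the low and HOMO mice all in the high one. With the series as a term the HET call was lost (adjusted p = 0.0894).

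Fgfr2, a receptor for fibroblast growth factors, had a 267-base exon excluded in 31.5%, 28.9% and 26.6% in R6/2 WT and 36.9%, 40.1% and 39.7% in R6/2 HD mice, which did not overlap (log2 change 0.65 ± 0.13, adjusted p = 0.00305). Exclusion in the Q150 set was 29.7%, 31.3%, 33.3%, 28.6% and 35.2% in WT, 36.5%, 38.8%, 35.9% and 46.2% in HET and 38.4%, 36.7%, 46.7% and 43.9% in HOMO mice. HOMO mice rose (log2 change 0.61 ± 0.15, adjusted p = 0.00442), though not after centring (0.41, adjusted p = 0.069). HET mice lay above all WT mice without passing (0.49, adjusted p = 0.0675). Q175 mice were at 30.9% to 37.2% (HET) and 32.7% to 36.98% (HOMO) beside 27.9% to 32.5% in WT. An event of Fgfr3 with a choice between mutually exclusive exons, so that exclusion is here the share of its short junction, was measured too. It was at 99.4%, 99.5%, 99.3%, 99.1% and 99.3% in Q150-set WT and 96.6%, 97.9%, 98.5% and 98.3% in HOMO mice. The short junction fell in HOMO mice (log2 change -1.61 ± 0.35, adjusted p = 0.00186), a change of 1.49 percentage points at an event that nearly always used it. The event was not on the list of the Q175 set.

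In the App and LDL-receptor families the Q150 HOMO mice moved at 3 of 5 events, beside 23.9% of all events. The 168-base Kunitz exon of App, which neurons largely leave out, was excluded in 78.9%, 76.9%, 79.3%, 77.2% and 69.4% in Q150-set WT and 72.1%, 67.7%, 64.7% and 68.2% in HOMO mice. Exclusion fell (log2 change -0.60 ± 0.17, adjusted p = 0.0127). The groups overlapped. The call held without any single mouse but was lost against all 10 knock-in WT mice and without the variance trend. The WT mice of the Q175 set, at 71.4%, 69.6%, 68.6%, 69.2% and 71.7%, lay near these HOMO mice. R6/2 mice gave 69.5%, 67.1% and 76.8% in WT and 66.9%, 73.4% and 71.9% in HD mice and did not pass (log2 change -0.04 ± 0.17, adjusted p = 0.893).

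Its counterpart in Aplp2 was skipped in 17.9%, 21.6% and 22.8% in R6/2 WT and 16.1%, 16.9% and 12.9% in R6/2 HD mice, without overlap (log2 change -0.54 ± 0.14, adjusted p = 0.0131). The fall was lost without R6/2 WT replicates 4 or 6 (adjusted p from 0.0522 to 0.0698) and without the variance trend (adjusted p = 0.0997). Q150 HOMO mice (22.4% to 25.4%) overlapped their WT mice (20.96% to 24.1%) for it. A 36-base exon of Aplp2 rose in Q150 HOMO mice, from 6.57%, 7.51%, 5.88%, 6.06% and 6.57% in WT to 10.9%, 11.3%, 8.88% and 8.74% (log2 change 0.66 ± 0.12, adjusted p = 0.000234). HET mice at 8.58%, 9.47%, 7.59% and 8.21% were all above WT without passing (adjusted p = 0.0503). R6/2 HD mice were at 9.48% to 10.3% beside 7.47% to 9.74% (adjusted p = 0.122). The 54-base exon of App (chr16:84971408-84971461, minus strand) was skipped in under 1% of junctions in every mouse. It went from 0.194%, 0.194%, 0.195%, 0.317% and 0.314% in WT to 0.217%, 0.352%, 0.502% and 0.422% in Q150 HOMO mice (log2 change 0.60 ± 0.22, adjusted p = 0.0489), which overlapped. This call was lost after centring (0.40, adjusted p = 0.218) and without Q150 HOMO replicates 2, 3 or 4 or knock-in WT replicates 1, 2 or 3 (adjusted p from 0.084 to 0.18). It was also lost without the variance trend (adjusted p = 0.121), with only the 2 groups compared (0.0579) and against all 10 knock-in WT mice (0.0873).

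Of the 12 receptor tyrosine phosphatase events, Ptpro fell and Ptprt rose. Ptpro had an 84-base exon excluded in 25.6%, 24.2% and 42.3% in R6/2 WT and 7.32%, 12.5% and 9.63% in R6/2 HD mice (log2 change -2.01 ± 0.44, adjusted p = 0.00492). The groups did not overlap although the event had only 14 to 135 counts per mouse, and the call held in each fit that included the event. Q150 HOMO mice were at 22.2%, 15.7%, 42.6% and 25.4% beside 32.3%, 51.4%, 51.7%, 33.3% and 42.9% in WT and did not pass (-1.08, adjusted p = 0.0552). The 30-base Ptprt exon was excluded in 28.5%, 30.4% and 27.97% in R6/2 WT and 36.4%, 37.8% and 37.4% in HD mice (log2 change 0.54 ± 0.17, adjusted p = 0.0302). In Q150 HOMO mice it rose to 33.2%, 35.4%, 36.3% and 26.3% from 27.2%, 29.5%, 26.02%, 23.5% and 25.2% in WT (log2 change 0.45 ± 0.16, adjusted p = 0.0481). Neither held after centring (adjusted p = 0.122 and 0.308). The R6/2 call was also lost without R6/2 HD replicates 868 or 869 or R6/2 WT replicates 3 or 6 (adjusted p from 0.0726 to 0.0892), and the Q150 HOMO call without Q150 HOMO replicates 1, 2 or 3 or knock-in WT replicates 1, 3, 4 or 5 (adjusted p from 0.0668 to 0.149). The latter was lost too without the variance trend (adjusted p = 0.0605), in the quasi-binomial model (0.052) and with only the 2 groups compared (0.0661).

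Synaptic adhesion and scaffold genes held 21 events, 2 of 19 higher in R6/2 mice (21.1% of all events) and 7 of 20 higher in Q150 HOMO mice (19.8% of all). None was lower in either, where 7.46% and 4.09% of all events were. Magi1, a scaffold with several PDZ domains, had the largest change of all members tested in the 5 comparisons with WT. Its 89-base exon, which is no multiple of 3, was excluded in 36.2%, 39.5% and 47.4% in R6/2 WT and 78.7%, 81.4% and 77.4% in R6/2 HD mice (log2 change 2.42 ± 0.34, adjusted p = 0.000221). Among Q150 mice it was 33.3%, 30.1%, 27.96%, 39.7% and 39.4% in WT and 47.5%, 54.8%, 58.9% and 53.6% in HOMO mice, again without overlap (log2 change 1.16 ± 0.26, adjusted p = 0.00255), and both rises held under all alternatives. Q175 HOMO mice, at 52.7%, 50.7% and 55.4%, were beside WT mice at 41.5%, 51.5%, 43.96%, 48.96% and 35.9% (0.50, adjusted p = 0.337). The event had 43 to 131 counts per mouse.

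Dlgap1, a postsynaptic partner of the Dlg scaffolds, had its 30-base exon excluded in 2.57%, 3.000% and 2.81% in R6/2 WT and 5.06%, 4.38% and 5.21% in HD mice (log2 change 0.83 ± 0.15, adjusted p = 0.00145). In Q150 mice it was 2.601%, 2.62%, 2.72%, 3.03% and 3.06% in WT and 3.42%, 4.75%, 3.98% and 3.83% in HOMO mice (log2 change 0.52 ± 0.13, adjusted p = 0.00556), a rise that was lost after centring (0.32, adjusted p = 0.0815). HD and HOMO mice all lay above their WT mice for it. A 36-base Magi1 exon also rose in Q150 HOMO mice, to 2.88%, 2.699%, 2.98% and 2.92% from 1.32%, 1.803%, 1.42%, 1.13% and 2.24% in WT (log2 change 0.88 ± 0.31, adjusted p = 0.0446), but not after centring (0.68, adjusted p = 0.136) and not without Q150 HOMO replicates 1, 2, 3 or 4 or knock-in WT replicates 1, 3 or 4 (adjusted p from 0.0751 to 0.1) or with a pseudocount of 5 (adjusted p = 0.0772). The other rises in Q150 HOMO mice were in Dlg1, in Lphn2 and in a pair of Dlgap4 events that share their short count, from 0.41 for Lphn2 to 0.80 for Dlgap4. They were chosen after their values were seen, and none held after centring. Dlg1 was lost without Q150 HOMO replicates 1 or 3 (adjusted p from 0.0506 to 0.0569), and Lphn2 without Q150 HOMO replicates 1, 2 or 4 or knock-in WT replicates 1 or 3 (adjusted p from 0.0532 to 0.0809). The Dlgap4 events were lost without Q150 HOMO replicates 1, 2 or 3 or knock-in WT replicates 1, 3 or 5 (adjusted p from 0.0513 to 0.082) and without Q150 HOMO replicate 1 or knock-in WT replicate 3 (adjusted p from 0.0595 to 0.0747).

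Cadherins and catenins gave 2 calls of 5 events, both in Q150 HOMO mice, where 23.9% of all events passed. Ctnna2, the neuronal alpha-catenin that ties cadherins to actin, had its 144-base exon skipped in 31.3%, 23.4%, 26.9%, 24.7% and 26.9% in WT and 15.98%, 18.4%, 13.97% and 23.4% in HOMO mice (log2 change -0.75 ± 0.18, adjusted p = 0.00442), a fall that held under all alternatives. Pcdh9, a protocadherin named after its values were seen, rose at a 102-base exon from 61.2%, 63.2%, 65.8%, 71.3% and 67.7% in WT to 73.3%, 74.2%, 78.1% and 72.99% in HOMO mice (log2 change 0.61 ± 0.14, adjusted p = 0.0037). The cadherin-family event with the smallest p in R6/2 mice, a 118-base exon of Ctnnd1, did not pass (0.43, adjusted p = 0.253).

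Among CD antigens and orphan receptors only Cd47, whose protein is a signal that restrains phagocytes, passed in any comparison, in R6/2 mice, where it was 1 of 9 events tested beside 28.6% of all events. Its 33-base exon was excluded in 4.11%, 3.95% and 3.01% in R6/2 WT and 2.96%, 2.19% and 1.69% in HD mice (log2 change -0.74 ± 0.25, adjusted p = 0.0439), a fall lost without R6/2 HD replicates 868 or 869 or R6/2 WT replicates 3 or 4 (adjusted p from 0.0935 to 0.16) and without the variance trend (adjusted p = 0.0811). Of the events that share letters only, Lrrfip2 rose at a 72-base exon from 4.47%, 4.85% and 5.57% in R6/2 WT to 10.3%, 12.1% and 11.4% in HD mice (log2 change 1.25 ± 0.29, adjusted p = 0.00608). Fgfr1op, a centrosomal protein, rose at a 60-base exon in R6/2 (log2 change 1.43 ± 0.46, adjusted p = 0.0343) and Q175 HOMO mice (log2 change 0.73 ± 0.23, adjusted p = 0.0462). Exclusion of this exon was 93.9% to 98.3% in R6/2 WT and 94.4% to 97.2% in Q175-set WT mice. The R6/2 call was lost without R6/2 HD replicates 860 or 868 or R6/2 WT replicates 3 or 6 (adjusted p from 0.081 to 0.147) and the Q175 HOMO call without Q175 HOMO replicates 2 or 3 or knock-in WT replicates 6, 7 or 9 (adjusted p from 0.0885 to 0.193). The R6/2 call was also lost without the variance trend (adjusted p = 0.0988). The Q175 HOMO call was lost after centring (adjusted p = 0.0602), without the variance trend (0.14), with the series of mouse numbers as a term (0.197), with a pseudocount of 5 (0.0572), in the quasi-binomial model (0.0619) and against all 10 knock-in WT mice (0.138). Col4a3bp, a ceramide transfer protein (log2 change 0.71 ± 0.19, adjusted p = 0.00791, but lost against all 10 knock-in WT mice, adjusted p = 0.115), and Gprasp1, a receptor sorting protein (log2 change 0.82 ± 0.25, adjusted p = 0.0207), rose in Q150 HOMO mice, the latter not after centring (0.62, adjusted p = 0.0853) and not without Q150 HOMO replicates 1 or 3 (adjusted p from 0.0578 to 0.0698).

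**Figure D3:**
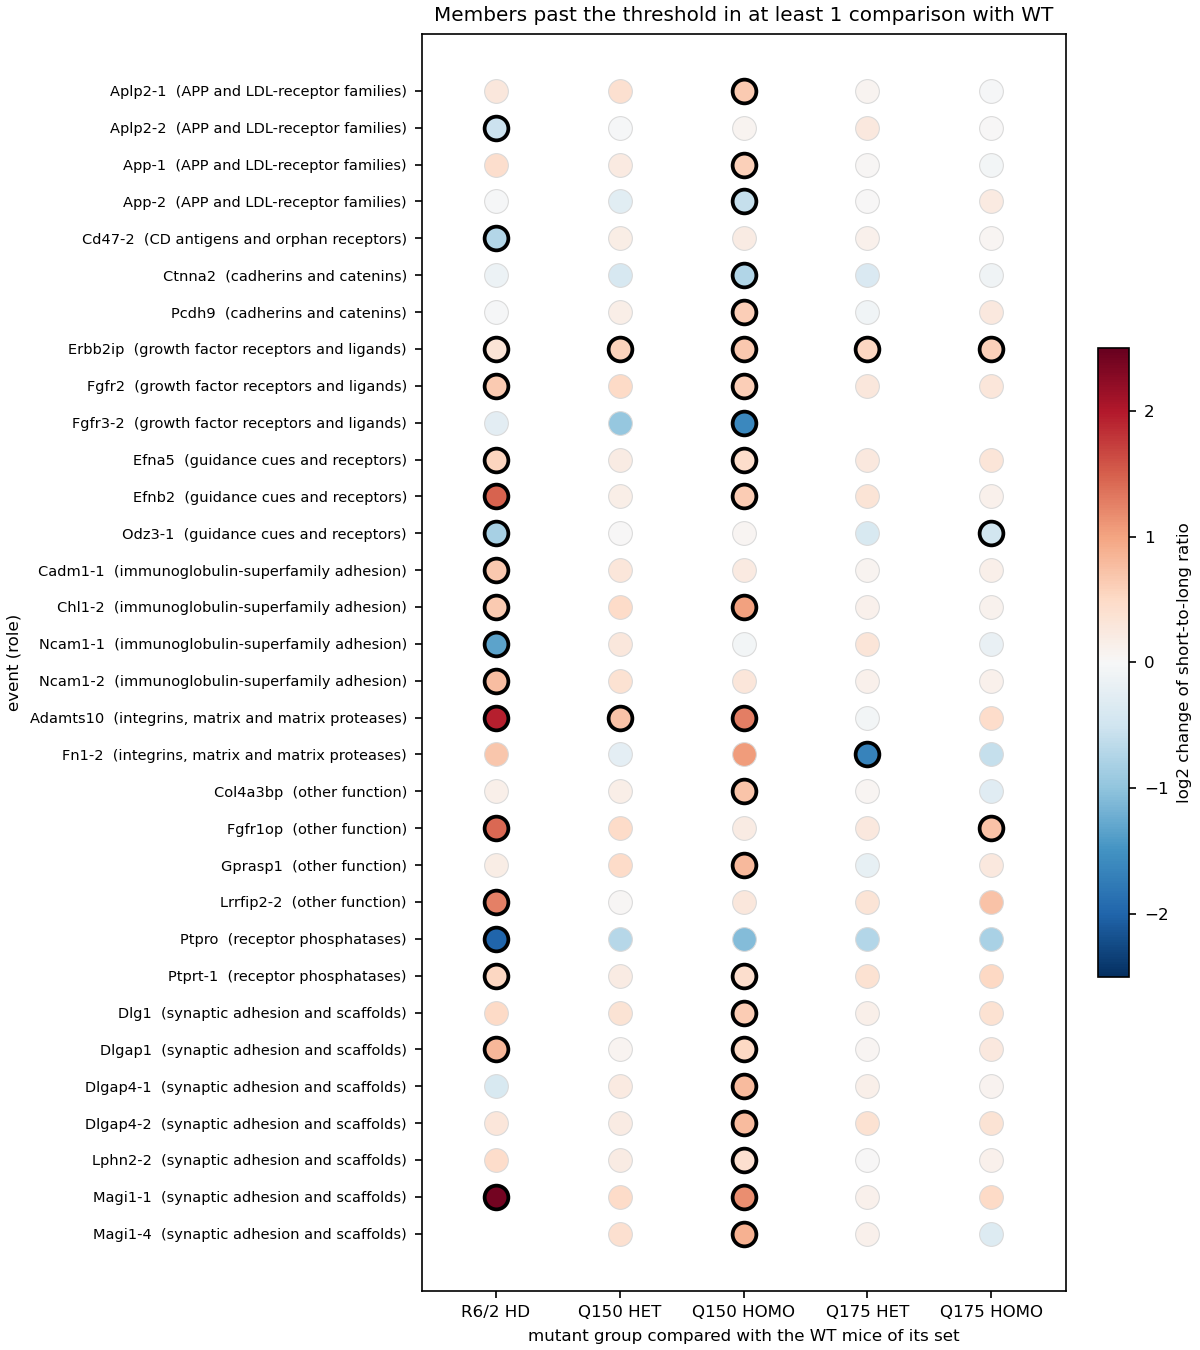
Rows are the 32 member events that passed in at least 1 comparison, grouped by role, and columns the 5 mutant groups against their WT mice. Colour gives the log2 change of exon skipping (short over long count, with red for more skipping), a black ring marks an adjusted p under 0.05, and a missing dot an event not on that list. Erbb2ip is ringed in every column, and most other rings lie in the R6/2 HD and Q150 HOMO columns, where 28.6% and 23.9% of all events passed.

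The number of mutant alleles was tested as a slope over WT, HET and HOMO mice. In the Q150 set 23 of 92 member events had a slope (19 upwards and 4 downwards), where 23.4% of all events did, and 13 after centring. With the series of mouse numbers as a term 29 had one (23 upwards and 6 downwards), where 30.4% of all events did. In the Q175 set 4 of 94 had one (3 upwards and 1 downwards), where 7.34% of all events did, and 2 after centring. Without knock-in WT replicate 3 the Q150 count was 15. The Q175 count was 1 without knock-in WT replicate 9 or Q175 HOMO replicate 1, and 2 without knock-in WT replicate 6, 7 or 8, Q175 HET replicate 2 or Q175 HOMO replicate 2 or 3. The slope does not show a step from 1 to 2 mutant alleles. In the direct comparison of HOMO with HET mice 0 member events passed in limma in either line, where 2.18% of all events passed in Q150 and 0.816% in Q175 mice. At an unadjusted p under 0.05 in limma there were 11 of 92 member events in Q150 and 11 of 94 in Q175 mice. Over all events there were 251 of 1785 and 200 of 1839. With the series of mouse numbers as a term 1 member event passed in each line, upwards in both, where 4.48% of all events passed in Q150 and 0.163% in Q175 mice. For Adamts10, HOMO mice of the Q150 line lay above HET mice without overlap, 0.55 on the log2 scale, but with adjusted p = 0.116.

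Differences between models were tested on the 83 member events listed in all sets. The change in R6/2 exceeded that in Q175 HOMO mice for Adamts10 (1.48 ± 0.27, adjusted p = 0.000213), Efnb2 (1.35 ± 0.32, adjusted p = 0.00324), the 89-base Magi1 exon (1.93 ± 0.40, adjusted p = 0.000926), the 30-base Ncam1 exon (0.65 ± 0.17, adjusted p = 0.00596) and Dlgap1 (0.58 ± 0.19, adjusted p = 0.0401), 5 of 83 events where 11.6% of all events differed. The Dlgap1 difference was lost after centring (adjusted p = 0.128). Between R6/2 and Q150 HOMO mice 6 events differed, where 9.69% of all did, with Magi1 higher in R6/2 (1.26 ± 0.39, adjusted p = 0.0308) and the Aplp2 Kunitz exon (-0.61 ± 0.19, adjusted p = 0.0293) and Cd47 lower (-0.94 ± 0.29, adjusted p = 0.0332). The other 3, chosen after their values were seen, were Odz4 (0.88 ± 0.28, adjusted p = 0.0351), Dlgap4 (-1.20 ± 0.39, adjusted p = 0.0423) and Pcdh9 (-0.64 ± 0.20, adjusted p = 0.0318). After centring the differences of Aplp2 (adjusted p = 0.053), Dlgap4 (0.054) and Pcdh9 (0.0516) were lost and that of the 30-base Ncam1 exon passed (adjusted p = 0.0271). Against Q175 HOMO mice, centring brought the Aplp2 Kunitz exon (adjusted p = 0.0212) and Cd47 (0.048) past the threshold. Between Q150 and Q175 HOMO mice 3 differed, where 2.77% of all did: the 36-base Aplp2 exon (0.68 ± 0.15, adjusted p = 0.00873), the Kunitz exon of App (-0.82 ± 0.22, adjusted p = 0.0336) and Col4a3bp (1.00 ± 0.26, adjusted p = 0.0293). After centring only the App exon was left of these 3.

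The summed short and long counts of an event as CPM of the mouse are a second readout, which follows how much of the transcript was read. In R6/2 mice 39 of 92 member events passed (17 higher and 22 lower), where 44.6% of all events passed, 29.7% higher and 14.9% lower. Centred on the median event, members gave 16 higher and 27 lower totals, and all 1743 events 394 and 309. Both Ptprt events lost counts, the 30-base event with 182, 146 and 155 CPM in WT and 79.1, 87.7 and 92.5 in mutant mice (log2 change -0.88 ± 0.12, adjusted p = 5.05e-05). The other had a log2 change of -1.18 ± 0.22, adjusted p = 0.000743. The Fgfr3 event had 387, 302 and 366 CPM in WT and 185, 155 and 178 in mutant mice (log2 change -1.02 ± 0.11, adjusted p = 1.02e-05). Dlg4, the postsynaptic scaffold PSD-95, had 688, 742 and 727 CPM in WT and 429, 493 and 422 in mutant mice (log2 change -0.68 ± 0.08, adjusted p = 2.66e-05). In all of these the HD mice lay below all WT mice. Ptprz1, a receptor phosphatase of glia, was lower too (log2 change -0.66 ± 0.08, adjusted p = 2.3e-05). Higher totals were found for Ptpro, with 13.5, 15.2 and 7.37 CPM in WT and 35.8, 26.3 and 31.1 in mutant mice (log2 change 1.34 ± 0.25, adjusted p = 0.000609). Cd99l2, an adhesion molecule of leukocytes and other cells, was also higher, with 256, 209 and 242 CPM in WT and 547, 513 and 401 in mutant mice (log2 change 1.04 ± 0.12, adjusted p = 1.36e-05). Dlgap1 had fewer counts along with more skipping, with 1419, 1397 and 1521 CPM in WT and 879, 993 and 939 in mutant mice (log2 change -0.63 ± 0.07, adjusted p = 2.05e-05). Totals of these members in other groups were fewer past the threshold: 16 of 92 in Q150 HOMO mice, where 14.2% of all passed, and 15 of 94 in Q175 HOMO mice, where 12.8% did. Centring turned the Q150 HOMO split from 9 higher and 7 lower to 6 and 15, and the Q175 HOMO split from 8 and 7 to 7 and 9. Over all events it turned the Q150 HOMO split from 168 higher and 85 lower to 67 and 146, and the Q175 HOMO split from 129 and 107 to 81 and 133. The Q150 HOMO count fell to 4 without Q150 HOMO replicate 2, to 7 without Q150 HOMO replicate 1 and to 9 without knock-in WT replicate 3 or 4, and the Q175 HOMO count to 9 without Q175 HOMO replicate 1.

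In R6/2 mice 8 of the 18 events with a change in exon use also passed in totals, beside 39 of all 92 members. In Q150 HOMO mice 6 of 22 did, beside 16 of 92, and in Q175 HOMO mice 2 of 3, beside 15 of 94. The R6/2 events with both were Adamts10, Dlgap1, Ptprt, Efna5 and Erbb2ip, with more skipping and fewer counts, Chl1 with more of both, and Aplp2 and Ptpro with less skipping and more counts. Efnb2 (log2 change 0.06 ± 0.08, adjusted p = 0.563) and the 30-base Ncam1 event (log2 change 0.12 ± 0.07, adjusted p = 0.142) changed in exon use and did not pass in their totals.

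**Figure D4:**
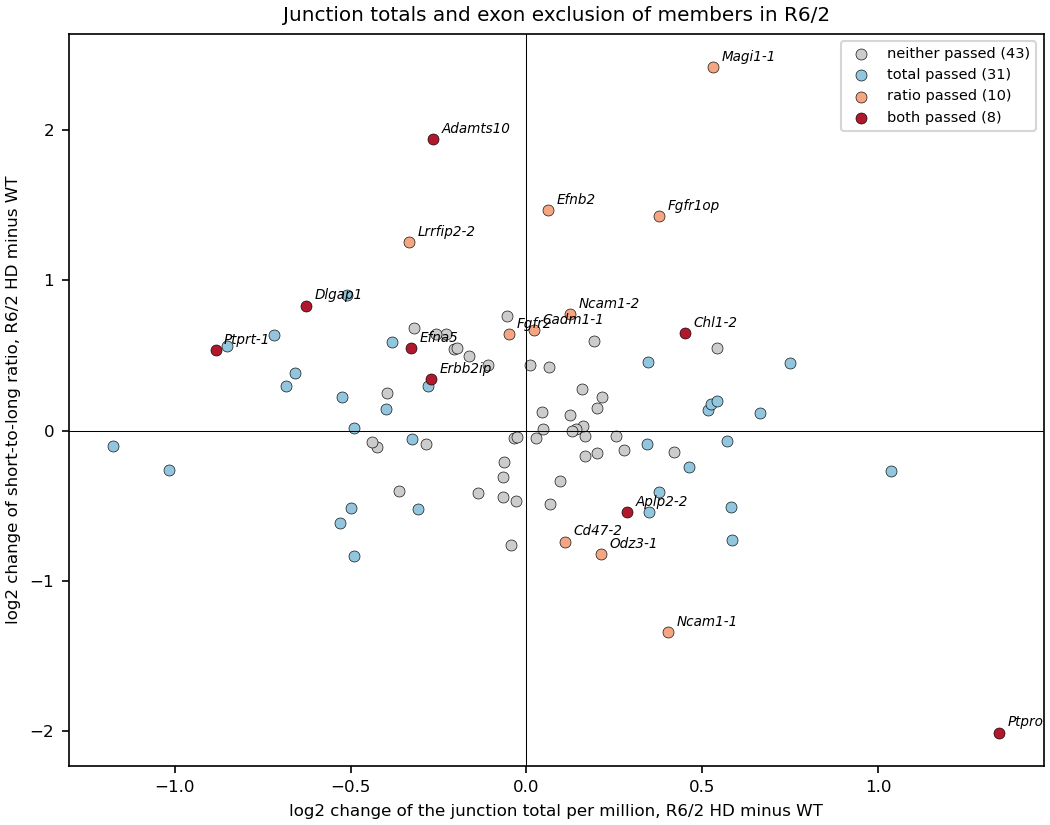
Each point is 1 of 92 member events in R6/2 mice, with the log2 change of its junction total in CPM on the x axis and the log2 change of its short over long count on the y axis, both HD minus WT. Red points passed in both readouts (8), orange in the ratio alone (10), blue in the total alone (31) and grey in neither (43), and events past the ratio threshold are named.

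The alternative exons of the members were shorter than those of the assay and nearly always kept the reading frame. Their median length was 60 bases against 90 for all 1520 matched exons, and 10 of 83 (12.05%) were of at most 27 bases against 4.67% of all. Of the 83, 73 were coding (88.0%, against 75.7% of all), and 69 of these 73 (94.5%) had a length that is a multiple of 3, against 73.7% of all coding exons. The 4 that did not were in Adamts10, Adamts6, Lphn3 and Magi1, and 2 of these 4, Adamts10 and the 89-base Magi1 exon, gave the largest rises in R6/2 mice. The letters TGCATG, the motif of Rbfox splicing factors, searched on the strand of the gene within the exon and 200 intronic bases on either side, were found at 36.1% of member exons and 23.9% of all. TGTGTG, a run of the kind bound by TDP-43, was found at 28.9% of member exons and 33.6% of all. These shares are descriptions of gene families with like sequences. In R6/2 mice the members with TGCATG gave 7 rises and 2 falls among 29 tested (median log2 change 0.34), and those with no TGCATG 5 rises and 2 falls among 47 (median -0.00). Over all events there were 73 rises and 22 falls among 338 with the letters (median 0.21), and 234 rises and 76 falls among 1040 without (median 0.19). Members with TGTGTG gave 1 rise and 2 falls among 24 (median -0.06), where all 465 events with it gave 103 and 35 (median 0.19). In Q150 HOMO mice the member medians were 0.24 with and 0.11 without the letters, and 0.25 and 0.18 over all events.

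**Figure D5:**
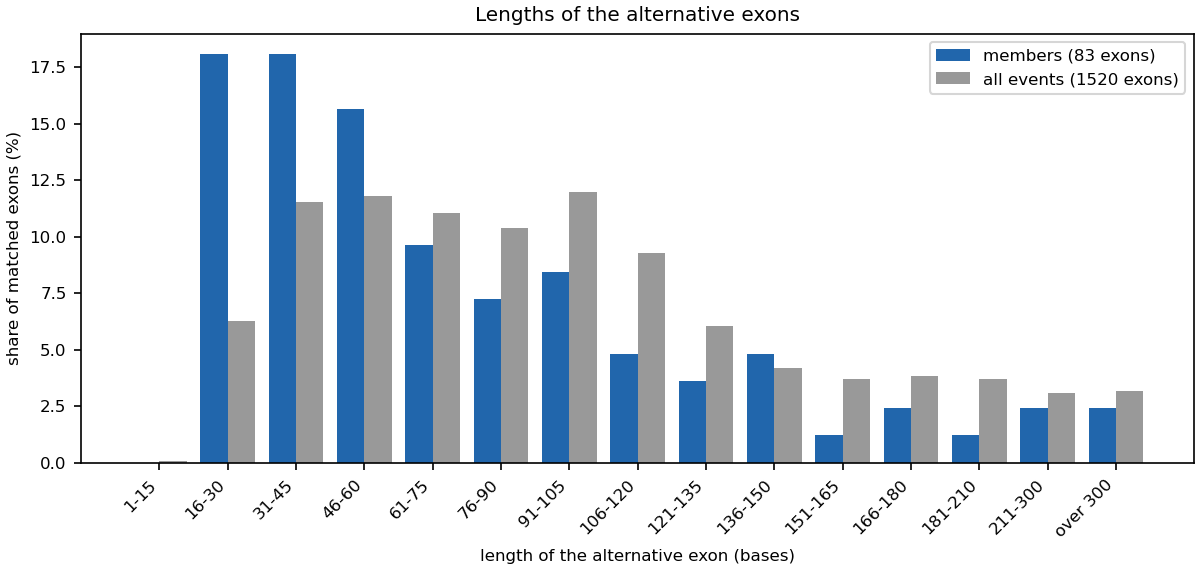
Share of matched alternative exons in percent by exon length in bases, for the 83 member exons (blue) and all 1520 matched exons (grey). The member bars are higher from 16 to 60 bases and the bars of all events higher from 61 to 135 bases.

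Genes that work with the members at the membrane but lie outside the name rule gave 63 events in 38 genes. In R6/2 mice 20 of 59 passed (14 rose and 6 fell), in Q150 HET 5 of 62, in Q150 HOMO 17 of 62 (12 rose and 5 fell), in Q175 HET 1 of 61 and in Q175 HOMO mice 10 of 61 (6 rose and 4 fell). The shares of all events that passed were, in the same order, 28.6%, 3.47%, 23.9%, 0.598% and 7.07%. Nrxn3, a presynaptic adhesion molecule, was skipped at 1 exon in 23.7%, 17.3% and 20.1% in R6/2 WT and 7.78%, 8.31% and 6.26% in HD mice, a fall (log2 change -1.66 ± 0.19, adjusted p = 5.85e-05), while another Nrxn3 event, named after its values were seen, rose (log2 change 0.88 ± 0.14, adjusted p = 0.000617). Skipping also fell in Mag, the myelin-associated glycoprotein (log2 change -1.68 ± 0.17, adjusted p = 2.68e-05). Ank2, an ankyrin that anchors L1-family molecules, rose from 21.5%, 24.5% and 21.5% to 35.96%, 42.4% and 39.03% (log2 change 1.15 ± 0.12, adjusted p = 3.32e-05), with Sort1, a sorting receptor (log2 change 1.02 ± 0.14, adjusted p = 0.000149), and Epb4.1, a membrane skeleton protein (log2 change 1.04 ± 0.14, adjusted p = 0.000159). The R6/2 groups did not overlap for the first Nrxn3 exon or those of Mag, Ank2, Sort1 and Epb4.1. These exons were named for their small p in R6/2 mice, so the lack of overlap adds no support.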

How the data were processed

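The deposited tables hold, for each event and mouse, the short and the long RASL-seq count from ligated and amplified probe pairs, and no file held a count under 4, so rarer events may have been left out before deposit; the aligner and counter the authors used are not given in the sources used here. The values are whole numbers, written with commas as digit marks, and were used as deposited. The labels list the genome build mm10, but most event positions in the files lie outside their gene on GRCm38, so no file coordinate is printed. Titles call all knock-in mice Q150 and the genotype label opens with Q175 for all knock-in mutants, so the line was taken from the glutamine numbers in the labels. The methods give 3 Q150 HOMO and 4 Q175 HOMO mice, where the labels give 4 and 3, and the labels were followed. The title and the file column of 1 Q175 HET mouse give different mouse numbers. Ages are those of the methods.

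The log2 ratio (short + 0.5)/(long + 0.5) was tested per file set with limma 3.58.1 (R 4.3.3), with a variance trend on counts, and p-values were adjusted by Benjamini-Hochberg over all events of the set. An event needed a mean of 10 counts, and the threshold was 0.05. Totals as CPM were tested on the log2 scale. P-values measure the spread between mice. The members and lists were chosen with earlier results of these data known. Named events were those past the threshold in the same direction in R6/2 and a HOMO group, in each comparison up to 8 of the largest change among those whose mice did not overlap, every event of Ncam1, Nrcam, Chl1, App and Aplp2 and of Ncam2, Nfasc, L1cam and Aplp1 where listed, the smallest p in R6/2 for each role, and events with opposite calls (0 found). Models were compared by the difference of their changes. Alternatives were centring on the median event, other count minimums, a pseudocount of 5, no variance trend, a quasi-binomial model, the series of mouse numbers as a term, only the groups compared, all 10 knock-in WT mice, and each mouse left out. The fits were tested on simulated data. Figures used matplotlib 3.10.9 with Python 3.11.15.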

Additional observations from a re-analysis of the deposited data

Results flagged for a closer look

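Among the named events, 140 groups of 4 or 5 mice were examined for a mouse far from the others, and 9 were found, where chance gives about 1 in 20. In the WT mice of the Q150 set replicate 5 stood apart at 2 events: it excluded the Kunitz exon of App in 69.4% (the others 76.9% to 79.3%) and the Odz3 exon in 24.6% (13.0% to 15.7%). Q150 HET replicate 1 excluded the Erbb2ip exon in 29.4% (20.3% to 21.3%), and Q175 HET replicate 3 in 19.3% (22.5% to 23.1%). The latter mouse also stood apart at the 30-base Ncam1 exon, at 8.82% (10.4% to 10.6%). Chl1 was excluded in 10.1% in Q150 HOMO replicate 4 (7.72% to 7.99%). The 30-base Nrcam exon was at 65.7% in Q150 HET replicate 4 (55.0% to 56.8%), the 36-base one at 63.3% in Q150 HOMO replicate 2 (69.2% to 70.3%), and Ptpro at 44.1% in Q150 HET replicate 2 (up to 28.2%).

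The change differed between models at 11 tests of named events, by the limma test of the difference itself on the log2 scale. R6/2 minus Q150 HOMO was -0.61 for the Aplp2 Kunitz exon, 1.26 for the 89-base Magi1 exon and -0.94 for Cd47. R6/2 minus Q175 HOMO was 1.93 for Magi1, 0.65 for the 30-base Ncam1 exon, 0.58 for Dlgap1, 1.48 for Adamts10 and 1.35 for Efnb2. Q150 HOMO minus Q175 HOMO was -0.82 for the App Kunitz exon, 1.00 for Col4a3bp and 0.68 for the 36-base Aplp2 exon. Model, age, strain and file set cannot be told apart here.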

How the results depend on the processing

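The 40 calls of named events gave 668 values under the alternatives, of which 543 stayed past the threshold, 125 did not and 0 turned their direction. Of the calls, 16 held under all of these alternatives, 21 without any single mouse and 26 after centring. The number of member events past the threshold in Q150 HET mice (2) was 1 after centring and 1 without the variance trend. It was 7 with the series of mouse numbers as a term (7.675% of all events), 4 with only the groups compared and 8 against all 10 knock-in WT mice. In Q175 HET mice (2) it was 0 without the trend, 1 with the series and 1 against all 10 WT mice, and in Q175 HOMO mice (3) it was 0, 1 and 1. Q150 HOMO mice (22) gave 15 after centring and 29 with the series. The Q150 slope (23) gave 13 after centring and 29 with the series, and the Q175 slope (4) gave 2 after centring and 1 without the trend. HOMO against HET mice (0) gave 1 with the series in the Q150 line and 1 in the Q175 line. The 3 differences between Q150 and Q175 HOMO mice were 1 after centring.

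With 1 mouse left out in turn, R6/2 calls ran from 13 to 18, Q150 HET from 0 (without Q150 HET replicate 1) to 3, Q150 HOMO from 14 (without knock-in WT replicate 3) to 22, Q175 HET from 0 (without Q175 HET replicate 4) to 2 and Q175 HOMO from 1 (without knock-in WT replicate 9 or Q175 HOMO replicate 2) to 3. The Q150 slope ran from 15 (without knock-in WT replicate 3) to 23, the Q175 slope from 1 (without knock-in WT replicate 9 or Q175 HOMO replicate 1) to 4, and Q150 HOMO against HET from 0 to 1. Totals ran from 35 to 38 in R6/2, from 4 (without Q150 HOMO replicate 2) to 14 in Q150 HOMO and from 9 (without Q175 HOMO replicate 1) to 16 in Q175 HOMO mice. The cause of these moves was not tested. Depth limits the events with few counts, of which the lowest had 8 in a mouse. No paired analysis was possible because the labels give each mouse its own number, and the replicate numbers of the knock-in groups only follow the order of the samples.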
